A study of Mus musculus with 4 samples.

Results

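The genes described are the Ly6 surface antigens of mouse chromosome 15, given as a list of 9: Ly6a, Ly6c1, Ly6c2, Ly6d, Ly6e, Ly6f, Ly6g, Ly6i and Ly6k. A probe set was taken for a gene when the platform annotation names that gene alone, and the probe set with the highest mean over all 4 arrays stands for it. This gave 9 probe sets for 8 of the 9 genes, out of 22180 genes and 41345 probe sets in all. No probe set in the annotation used here names Ly6a alone, so Ly6a, the Sca-1 antigen of stem and progenitor cells, was not analysed here. Genes were chosen by name, and the mean level over 4 arrays chose between probe sets, which matters only for Ly6k with its 2. The family was picked with its differences in these data already known, so those differences are given as a description, and the counts below support nothing further.

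Expression was measured on 4 single-colour arrays of EO771 cells, a mouse mammary carcinoma line. The treated group (2 arrays) received recombinant mouse A-FABP, the adipose fatty acid binding protein encoded by Fabp4, at 100 ng/ml. The control group (2 arrays) received PBS, per the series design. Cells of both groups are labelled as grown to at least 70% confluence over 24 hours before treatment. How long A-FABP was present is not stated in those labels. The arrays of a group are titled biological replicates, and nothing else says whether the cultures were separate. The p-values and standard errors (SE) thus measure only the spread between these arrays, which limma pools in part over all probe sets. One label field of the controls, the description, reads like that of the treated arrays. Their titles and source names mark them as controls and were followed.

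Ly6 proteins are small, cysteine-rich antigens, most of them held on the outer cell surface by a glycosylphosphatidylinositol (GPI) anchor. Many serve as lineage markers: the Ly-6C antigens (Ly6c1, Ly6c2) on monocytes and some lymphocytes and endothelial cells, and Ly6g, part of the Gr-1 epitope, on neutrophils. Several members, among them Ly6a, Ly6c1 and Ly6e, are known to respond to interferons. The genes lie close together and arose by duplication, so reads or probes of 1 paralog can pick up another.

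With A-FABP, 4 of the 8 measured genes had intervals above 0: Ly6c1 at 1.73-fold, Ly6c2 at 1.59-fold, Ly6g at 1.46-fold and Ly6i at 1.38-fold. Ly6e lay 1.08-fold higher. Ly6d, Ly6k and Ly6f lay 1.25-, 1.15- and 1.11-fold lower. None of the 8 passed limma's adjusted threshold of 0.05, and 0% of the 41345 probe sets did, with 0.296 as the lowest adjusted p. Before adjustment, 4 members had p under 0.05 on the higher side and 0 on the lower, where 4.81% of all genes were higher and 8.24% lower (1066 and 1828 genes, or 1812 and 1048 after median centring). The count moved with the fit, as did that of all genes. With the replicate block it was 3 higher, without Ly6i, and 1 lower, Ly6d (all genes: 723 higher, 1464 lower). The level filter added Ly6k on the lower side among the 5 members it kept (all genes kept: 1443 higher, 865 lower). Trend and robust eBayes added Ly6e on the higher side (all genes: 1889 higher, 1425 lower). Permuting 2 arrays against 2 exactly, for any 1 gene, allows no two-sided p under 0.33.

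The Ly-6C genes had the widest separations in the family. Ly6c2 read 7.17 and 7.17 (log2 expression) on the treated arrays against 6.44 and 6.57 on the controls. Both treated arrays lay above both controls, and the gap of 0.60 between the groups was wider than the largest gap of 0.13 within a group. The log2 difference was 0.67 ± 0.09 (SE, n = 2 per group; 95% CI 0.42 to 0.91; limma adjusted p = 0.296). Ly6c1 read 5.49 and 5.73 on the treated arrays against 4.89 and 4.74 on the controls, again with no overlap and a gap of 0.60. Its log2 difference was 0.79 ± 0.13 (95% CI 0.44 to 1.15; limma adjusted p = 0.296), and 0.307% of all genes had a larger difference in size, against 0.726% for Ly6c2. The Ly6c1 probe set is dim, with 32.1% of all probe sets dimmer, while 64.7% are dimmer than that of Ly6c2.

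Ly6g and Ly6i lay on the same side with more scatter. Ly6g read 6.35 and 6.72 on the treated arrays against 6.02 and 5.97 on the controls. The second treated array stood highest, and the gap between the groups (0.33) was a little narrower than the gap between the treated arrays (0.36). The log2 difference of 0.54 ± 0.15 (95% CI 0.12 to 0.97; limma adjusted p = 0.300) became 0.36 without A-FABP replicate 2. Ly6i, a close relative of the Ly-6C genes described in myeloid cells, read 5.29 and 5.32 on the treated arrays against 5.04 and 4.64 on the controls. Here the controls scattered, by 0.40, and the treated arrays agreed closely. The Ly6i difference of 0.47 ± 0.16 (95% CI 0.01 to 0.92; limma adjusted p = 0.327) became 0.26 without PBS control replicate 2.

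Ly6e, a broadly expressed member that restricts the entry of several viruses, was among the brightest probe sets on the arrays, with 99.7% of all probe sets dimmer. It read 13.12 and 13.13 on the treated arrays against 13.02 and 12.99 on the controls. The groups did not overlap, yet the log2 difference was only 0.12 ± 0.08, with a 95% CI of -0.10 to 0.33 (limma adjusted p = 0.507). This SE draws in part on all probe sets and is wider than the scatter of these arrays (standard deviations 0.007 treated and 0.019 control). Array summaries of this kind flatten differences near the brightest values, and whether this difference is understated was not tested. Genes with a mean of 12 to 14 had a median difference of 0.002, and Ly6e lay above their upper decile of 0.09. In that band 29% of genes had both treated arrays above both controls and 26.2% had both below.

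The remaining 3 members lay lower with A-FABP, by small amounts. Ly6d, a marker of B-lymphoid progenitors and of stratified epithelium, read 6.08 and 6.33 on the treated arrays against 6.37 and 6.68 on the controls. The groups were parted by 0.04, far less than the 0.31 between the controls, and the difference was -0.32 ± 0.16 (95% CI -0.77 to 0.14; limma adjusted p = 0.422; -0.16 without PBS control replicate 2). Ly6k, best known from the testis and from sperm function, read 6.59 and 6.51 on the treated arrays against 6.75 and 6.76 on the controls. Its arrays agreed closely within each group, and the difference was -0.21 ± 0.08 (95% CI -0.44 to 0.02; limma adjusted p = 0.350). The other Ly6k probe set, dimmer at 5.64 and 5.65 against 5.76 and 5.70, lay on the same side at -0.09 ± 0.08. Ly6f read 4.17 and 4.05 on the treated arrays against 4.16 and 4.36 on the controls. Its groups overlapped at this very dim level, and its difference of -0.15 ± 0.11 (95% CI -0.46 to 0.16; limma adjusted p = 0.547) became -0.05 without PBS control replicate 2.

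**Figure D1:**
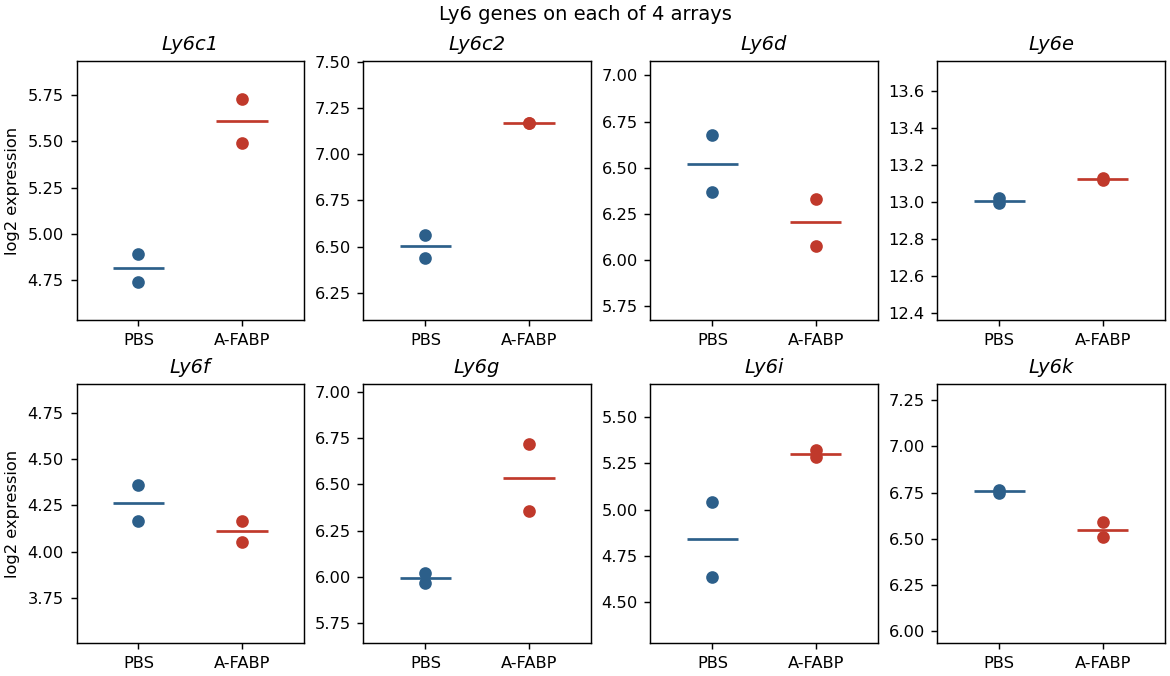
Each panel shows 1 Ly6 gene, with log2 expression on the y axis (every panel spans the same range of log2 units) and the group on the x axis; points are the 2 arrays of a group and lines are group means. Ly6c1, Ly6c2, Ly6g, Ly6i and Ly6e have both A-FABP arrays above both PBS arrays, Ly6d (as deposited) and Ly6k have both below, and Ly6f overlaps.

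Counted over the family, both treated arrays lay above both controls in 5 of the 8 genes, against 26% of all genes, and below in 2, against 27.5%. Of those 2, Ly6d overlapped after median centring, cyclic loess or repeated quantile normalization, which left 1. After median centring the shares of all genes were 38.2% above and 18.4% below. A difference of at least 1.5-fold was reached on the higher side by 2 members (0.478% of all genes) and on the lower side by 0 (0.852%). The median log2 difference of the 8 was 0.29 and that of all genes -0.01. All 8 kept their sign in every alternative that gave a value, but many of these could not have turned it. Other eBayes settings, the level filter and the replicate block leave the differences as they are. Leaving out 1 array cannot turn the sign of a gene whose groups do not overlap. Only other scalings, the other Ly6k probe set and, for Ly6f, leaving out 1 array could have done so.

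**Figure D2:**
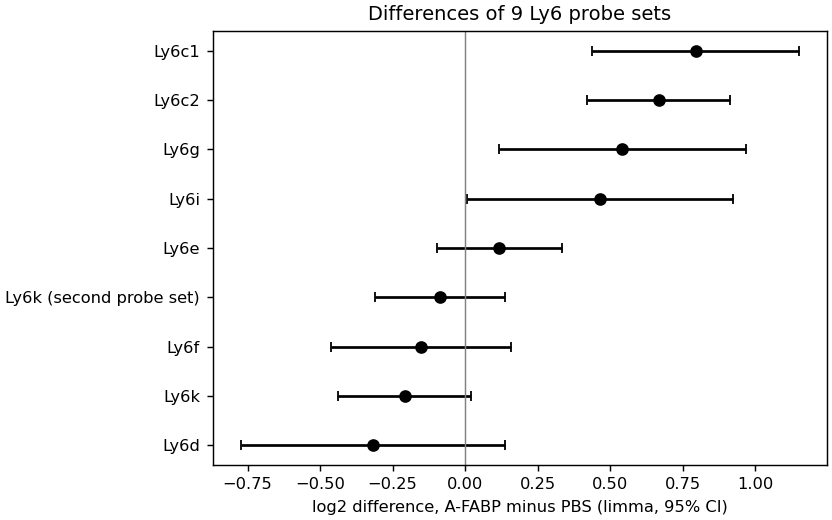
Log2 difference (A-FABP minus PBS, x axis) of the 9 Ly6 probe sets, with limma's 95% confidence interval, ordered by size on the y axis. The intervals of Ly6c1, Ly6c2, Ly6g and Ly6i lie above 0, Ly6i only just (0.01), and the other 5 include 0.

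Differences on these arrays followed the level of a gene, which sets the scale for dim members. Genes with a mean of 5 to 6 had a median difference of -0.15, and those of 6 to 7 a median of -0.10. Ly6c1 and Ly6i (5 to 6) and Ly6c2 and Ly6g (6 to 7) lay above 0 in bands where 6.61% and 16.1% of genes had both treated arrays above both controls. Ly6d and Ly6k lay on the side of their band, in which 41.2% of genes had both treated arrays below. Ly6f at -0.15 lay near the median of -0.11 for genes of 4 to 5.

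**Figure D3:**
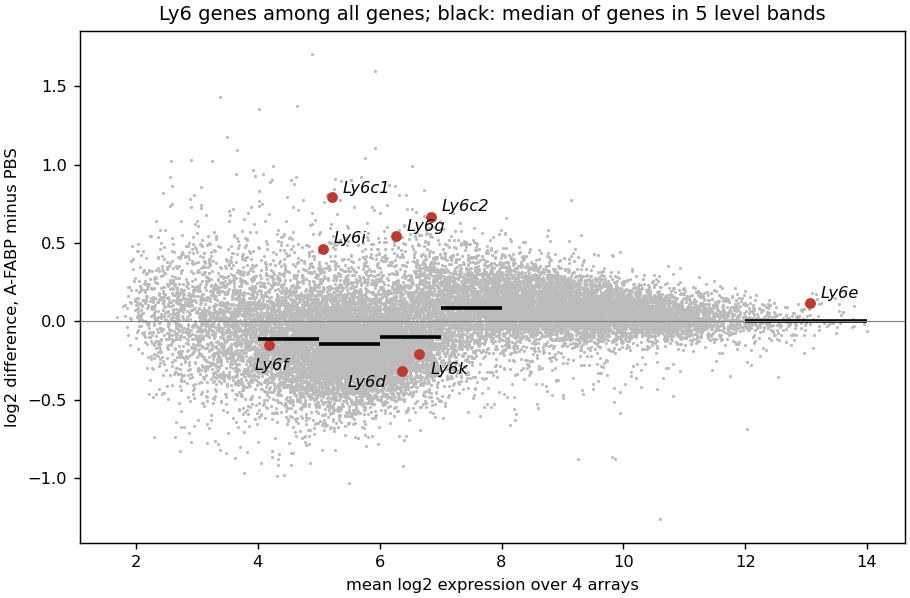
Log2 difference (A-FABP minus PBS, y axis) against mean log2 expression over 4 arrays (x axis) for 22180 genes in grey and the 8 Ly6 genes in red; black lines are medians of genes in 5 level bands. Ly6c1 (0.79), Ly6c2 (0.67), Ly6g (0.54) and Ly6i (0.47) lie above most genes of their level.

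Signal shared between paralogs could not be separated with these values. None of the 9 probe sets repeats the values of another probe set on the arrays, but signal shared in part would not give equal values. Within groups, scatter fell on different arrays: Ly6g parted the treated arrays, Ly6i parted the controls, and Ly6c2 read the same on both treated arrays. Neither observation measures shared signal. Whether single probes match more than 1 of these genes was not tested.

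The sequences just outside the gene models of Ly6c1, Ly6c2, Ly6g and Ly6f show how alike the duplicated copies are there, and are given because 3 of them lay higher together and Ly6f did not. RefSeq's promoter table (GRCm38.p6) held these 4 of the 9 genes. For each, the 150 bases that end next to the outermost 5′ base of the RefSeq gene model are printed 5′ to 3′ along the gene. Capitals mark matches, on either strand, to TATAAA, the letters of a TATA box, and to CCAAT, those of a CCAAT box.
Ly6c1 (chr15:75048921-75049070, minus strand): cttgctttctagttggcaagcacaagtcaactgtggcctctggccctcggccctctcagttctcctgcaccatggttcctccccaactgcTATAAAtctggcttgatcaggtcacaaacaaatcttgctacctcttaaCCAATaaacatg
Ly6c2 (chr15:75112067-75112216, minus strand): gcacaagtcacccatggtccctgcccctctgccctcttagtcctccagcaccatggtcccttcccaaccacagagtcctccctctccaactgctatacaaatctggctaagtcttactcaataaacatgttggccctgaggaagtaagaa
Ly6g (chr15:75155111-75155260, plus strand): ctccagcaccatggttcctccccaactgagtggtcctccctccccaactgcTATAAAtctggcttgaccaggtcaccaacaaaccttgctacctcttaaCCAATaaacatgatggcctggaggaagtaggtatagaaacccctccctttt
Ly6f (chr15:75268222-75268371, plus strand): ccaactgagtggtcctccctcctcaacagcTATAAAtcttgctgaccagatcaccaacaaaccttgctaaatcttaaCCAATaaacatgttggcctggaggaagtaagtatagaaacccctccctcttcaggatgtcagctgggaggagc

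Ly6g and Ly6f were the most alike of the 4, with 119 identical bases in 129 aligned columns (92.2%). Ly6g lay at 0.54 and Ly6f at -0.15. Ly6c1 and Ly6c2, which lay at 0.79 and 0.67, shared 94 of 131 columns (71.8%). Ly6c1 shared 76.6% of columns with Ly6g and 74% with Ly6f. Ly6c2 shared 66.7% with Ly6g and 63.6% with Ly6f. Counted back from the gene model, TATAAA stood at 60 to 55 bases in Ly6c1, 99 to 94 in Ly6g and 120 to 115 in Ly6f, and CCAAT followed it in each, at 12 to 8, 51 to 47 and 73 to 69. The window of Ly6c2 held neither. Ly6f, which held both, is very dim (15.9% of probe sets dimmer), and its groups overlapped. Whether these letters or the likeness of the windows bear on the differences was not tested. Among the 22803 genes with such a window of the same length, 8.64% held TATAAA and 25.7% CCAAT. A search for TTCNNNGAA, the STAT-type gamma-activated site, for GAAANNGAA, most of the core of the interferon-stimulated response element, and for the NF-kB consensus found no match in the 4 windows. These were held by 4.43%, 4.21% and 2.18% of all windows, and no matches of different motifs overlapped in the 4.

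Along the chromosome the higher members were near neighbours. In RefSeq order, Ly6e, Ly6i, Ly6c1 and Ly6c2 follow each other among the genes with a named probe set, then come Ly6a2 and Ly6g. Ly6a2, a paralog that is not among the 9 and was singled out after its values were seen, lay at -0.38 ± 0.17. Ly6m, just before Ly6e, and Ly6g2, just after Ly6g, are also not among the 9. They lay at 0.04 and 0.02, with overlap. Neighbouring paralogs may share probe signal, which was not measured here. Of the 24 genes with a probe set from Psca to Gpihbp1, 16 are not members. They had a median of -0.11 and ranged from -0.39 (Ly6g6g) to 0.23 (Them6), with 2 above and 7 below without overlap, against 26% and 27.5% of all genes. Most had levels of 5 to 7, where 44.6% (5 to 6) and 41.2% (6 to 7) of genes lay below without overlap.

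**Figure D4:**
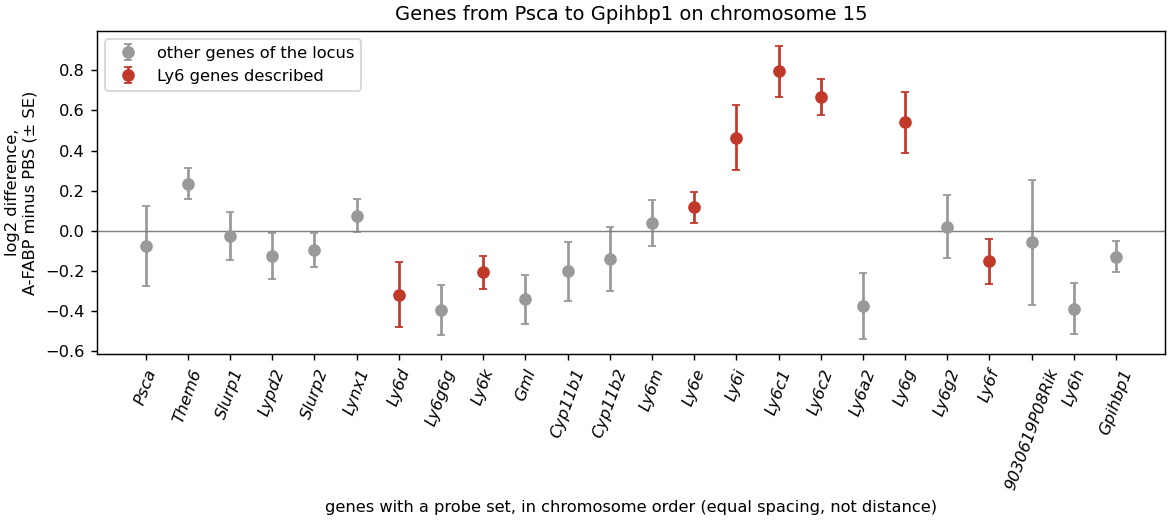
Log2 difference (A-FABP minus PBS, y axis, ± SE from limma) of 24 genes in their chromosome order (x axis, equally spaced); red points are the Ly6 genes described and grey points the other genes of the locus. Ly6e, Ly6i, Ly6c1, Ly6c2 and Ly6g lie above 0, with Ly6a2 at -0.38 between Ly6c2 and Ly6g.

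In the wider Ly6/uPAR family, of 27 measured genes, 20 lay below 0 and 7 above, with a median of -0.13 and a median level of 5.91. That is close to the median of -0.15 for all genes of level 5 to 6, and both treated arrays lay below both controls in 12 of the 27, where 44.6% of genes of that level did. Before adjustment, 1 had p under 0.05 on the higher side and 5 on the lower, against 4.81% and 8.24% of all genes. The higher one was Cd59a, an inhibitor of complement lysis, which read 7.24 and 7.41 on the treated arrays against 6.69 and 6.79 on the controls (0.59 ± 0.10). Tex101, a germ cell protein that works with Ly6k, lay at -0.43 ± 0.09, and Ly6g5c at -0.32 ± 0.09. None passed limma's adjusted threshold.

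Enzymes that build and trim the GPI anchor, on which most Ly6 proteins depend, had a median of 0.03 over 26 genes. Of these 18 lay above 0, as did 10562 of all 22180 genes. The list's median level was 7.98, and all genes of level 7 to 8 had a median difference of 0.09. Piga, of the first step of anchor synthesis, lay at 0.33 ± 0.11. It was the only gene of this list with an unadjusted p under 0.05, on the higher side, where 4.81% of all genes fell. Dpm1 and Pigp, of the same pathway, lay at 0.20 and 0.18. The 21 interferon response genes measured lay on both sides, 12 above 0 and 9 below, around a median of 0.00. Before adjustment 1 on each side had p under 0.05, against 4.81% of all genes higher and 8.24% lower. Irf1, an interferon-induced transcription factor, lay at -0.55 ± 0.11, and Gbp3, a guanylate-binding protein gene, at 0.36 ± 0.10. Irf7 lay at 0.22 ± 0.08. No gene of either list passed limma's adjusted threshold.

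Ly6c1, Ly6c2, Ly6g and Ly6i are read as markers of myeloid cells, so other markers of those cells are given beside them. Granulocyte markers lay below 0 in 9 of 10 genes (median -0.24), with Csf3r at -0.36, Ltf at -0.44 and Retnlg at -0.40. Their mean log2 level was 5.70 to 5.87 on the treated arrays and 6.03 to 6.08 on the controls. Monocyte and macrophage markers lay below 0 in 6 of 10 (median -0.14), with mean levels of 6.24 to 6.31 on the treated arrays and 6.36 on both controls. Itgam lay at -0.34, Ptprc, the pan-leukocyte CD45 gene, at -0.45 and Cd14 at 0.28. The mean levels of both lists were thus lower on the treated arrays, although 4 of the 10 monocyte and macrophage markers lay above 0. Of the granulocyte markers 0 lay above and 6 below without overlap. The monocyte and macrophage markers were evenly split, with 3 above and 3 below. The shares of all genes were 26% and 27.5%. The lists' median levels were 5.67 and 5.98, where all genes of level 5 to 6 had a median difference of -0.15. Before adjustment 3 granulocyte and 2 monocyte markers had p under 0.05, all on the lower side, as 8.24% of all genes did. The arrays are of EO771 cells, a carcinoma line grown in culture, and whether any leukocytes were present was not tested. The part of these markers in the Ly6 values was not tested either. In bulk RNA fewer cells of a type and less RNA per cell cannot be told apart. The level of Ptprc was low, with 16.3% of probe sets dimmer. S100a8 and Cd68 were bright, with 91.8% and 99.5% dimmer, but each was the brightest of its list. Only 3 of the 10 granulocyte and 5 of the 10 monocyte markers lay above the median level of all probe sets.

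Lists of other cells that carry Ly6 antigens were dim. Lymphocyte markers had a median level of 5.43 and a median difference of -0.12 over 5 genes, and endothelial markers 5.82 and -0.03 over 6. Basal keratinocyte markers, beside which Ly6d is often found, had 5.43 and -0.22 over 4 genes. Mammary epithelial markers, which check the labelled cell type, had a median level of 6.01 and a median difference of -0.14 over 7. Among them Krt8 was bright (83% of probe sets dimmer) and Epcam dim (24%). The arrays' own median log2 values were 5.95 to 6.03.

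By the distance between array profiles, each centred on its own mean, the 3 genes most like Ly6c1 among 12545 brighter than the median probe set were Zfp935, Kcna4 and Gm14139. Their distances over the 4 arrays were 0.10, 0.13 and 0.14 log2 units. Zfp935, a zinc finger gene, lay at 0.81 ± 0.09, Kcna4, a potassium channel gene, at 0.77 ± 0.12 and Gm14139 at 0.87 ± 0.17. With 4 arrays, such likeness describes a shared step between the groups and little more.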

How the data were processed

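The deposited table holds log2 expression values, 1 per probe set and array, made by the authors; per the submitters' processing notes the tools were RMA and Partek 6.6. How probe sets were designed, and on which build, is not stated there. Probe sets were named through GEO's platform annotation: 23521 name 1 gene, 1814 several and 16010 none. RMA compresses differences near the background and near saturation, and detection flags were not used here. For arrays, their number limits the precision.

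Groups were taken from titles. Differences (A-FABP minus PBS) were fitted with limma 3.58.1 (lmFit, eBayes; 2 residual and 1.91 prior degrees of freedom) in R 4.3.3. All 41345 probe sets entered it, p-values were adjusted by Benjamini-Hochberg, and the fit was tested on simulated data. Windows of 150 bases outside each gene model (RefSeq, GRCm38.p6; 22803 of 27025 genes in the promoter table) were aligned globally with free end gaps in Biopython 1.88. The members and gene lists were chosen with earlier results of these data known. All 9 members are named, plus up to 3 genes of each list with the lowest unadjusted p. The 3 genes most like the member with the largest difference are also named. Ly6a2, Ly6m, Ly6g2, Them6, Ly6g6g, S100a8, Cd68, Krt8 and Epcam were added after their values were seen. The alternatives tried are other scalings, a level filter, other eBayes settings, the replicate block, other probe set rules and leaving out each array.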

Additional observations from a re-analysis of the deposited data

How the results depend on the processing

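All 8 measured Ly6 genes kept their sign under every alternative that gave a value, and none passed the adjusted threshold in any; the filter at the median level gave no value for Ly6c1, Ly6f and Ly6i. Without 1 array, differences ranged from 0.67 to 0.92 for Ly6c1, 0.60 to 0.73 for Ly6c2, 0.36 to 0.72 for Ly6g, 0.26 to 0.67 for Ly6i, 0.10 to 0.13 for Ly6e, -0.47 to -0.16 for Ly6d, -0.25 to -0.05 for Ly6f and -0.25 to -0.17 for Ly6k. The lowest adjusted p of a member was 0.157, with the filter at the median level. The members with both treated arrays below both controls numbered 2 as deposited and 1 (Ly6k) after median centring, cyclic loess or repeated quantile normalization, since Ly6d, parted by 0.04, then overlapped.

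The number of probe sets at an unadjusted p under 0.05 was 6258, and 3489 to 5489 without 1 array: 4002 without A-FABP replicate 2, 4169 without PBS control replicate 1 and 3489 without PBS control replicate 2. With the replicate number as a block it was 5464, with 0 called, and the lowest adjusted p of a member was 0.377. Same-numbered arrays did not deviate together (r = -0.0089 over 41345 probe sets), so the numbers were not taken to pair the cultures. The number of arrays and the low signal of Ly6c1, Ly6i and Ly6f limit what these values can show.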
